A study of Mus musculus with 2 samples.

Results

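Nestin, vimentin and 5 genes that mark glial and neural progenitors were followed in single brain cells of adult wild type C57BL/6J mice. The 7 genes, Nes, Vim, Cspg4, Sox11, Sox2, Gfap and Pdgfra, were taken by symbol from the 27998 genes of the count matrices, and each symbol matched 1 gene. Both groups were cells sorted as CD11b+/CD45+, a gate on a pair of surface proteins that microglia share with other myeloid cells. The Repop D5 group was 1 library pooled from 6 mice given PLX5622, a drug that blocks Csf1r signalling and so depletes microglia, for 14 days and control diet for the next 5 days. The CD group was 1 library pooled from 4 mice on control diet for 19 days. No transgene is named for these mice, and the pools cannot be split into animals, so no value below has a replicate and no test between the groups could be made. Intervals are 95% and cover counting error only, since reads of a pool are not independent animals.

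Nestin and vimentin are intermediate filament proteins, which polymerise together into the flexible cytoskeletal fibres of many immature and dividing cells. In the brain nestin is best known from neural stem and progenitor cells and from vessel walls, and vimentin from immature glia, vessels and activated or blood-derived myeloid cells. Cspg4 encodes the surface proteoglycan NG2 of oligodendrocyte progenitors and pericytes, and Pdgfra the growth factor receptor of oligodendrocyte progenitors. Sox2 and Sox11 encode transcription factors of neural stem cells and of immature neurons, and Gfap encodes the filament protein of astrocytes and of some neural stem cells. These genes bear on the question of whether cells that refill the brain after microglial loss carry progenitor RNA, and whether such RNA lies in the same cells as microglial and cell cycle RNA.

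In the mm10 build (GRCm38), with GENCODE M21 models, Nes lies on the plus strand of chromosome 3 from 87971078 to 87980451 and Vim on the plus strand of chromosome 2 from 13573927 to 13582826. Cspg4 lies on the plus strand of chromosome 9 from 56865033 to 56899870. Sox11, a gene of 1 exon, lies on the minus strand of chromosome 12 from 27334264 to 27342574. Sox2, also of 1 exon, lies on chromosome 3 from 34650405 to 34652461, inside the long noncoding gene Sox2ot on the same strand, so reads of the pair may not be separable. Gfap lies on the minus strand of chromosome 11 from 102887336 to 102900912, inside a noncoding gene on the opposite strand, and Pdgfra on the plus strand of chromosome 5 from 75152292 to 75198215.

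All 7 genes had an entry among the RefSeq promoter sequences (GRCm38.p6). The bases in front of Nes and Cspg4 are shown because both genes were far higher in Repop D5 than in CD. Each runs 5′ to 3′ on the plus strand and stops before the first GENCODE M21 exon, and capitals mark matches to the motifs searched. The Nes stretch is chr3:87970843-87971077 and the Cspg4 stretch is chr9:56864854-56865032.
Nes: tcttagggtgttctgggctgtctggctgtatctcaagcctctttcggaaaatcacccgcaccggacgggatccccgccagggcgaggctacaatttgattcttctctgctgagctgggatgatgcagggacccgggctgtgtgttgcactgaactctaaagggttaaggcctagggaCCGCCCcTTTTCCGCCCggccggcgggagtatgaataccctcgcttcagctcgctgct
Cspg4: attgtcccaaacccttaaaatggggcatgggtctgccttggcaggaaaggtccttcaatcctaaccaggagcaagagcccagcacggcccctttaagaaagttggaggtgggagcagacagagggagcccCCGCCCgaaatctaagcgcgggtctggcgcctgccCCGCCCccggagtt
The motifs were the TATA box (TATAAA), the CCAAT box (CCAAT), the GC box (GGGCGG), the cell cycle homology element (TTTGAA), an E2F-type motif (TTTNNCGC) and an AP-1-type motif (TGANTCA), on both strands of the 250 bases before each RefSeq start. The Nes window held 2 GC boxes and 1 E2F-type match that overlaps the second of them. The Cspg4 window held 2 GC boxes alone. The Vim window held a TATA box 32 to 27 bases before the start and 2 CCAAT boxes. It is not printed, because it begins at 13574061, inside the GENCODE M21 model of Vim, which starts at 13573927. None of the 3 windows held the cell cycle homology element or the AP-1-type motif. Among all 32851 RefSeq promoter windows of this length, 12.4% held the TATA box, 33.8% the CCAAT box, 32.7% the GC box, 16.0% the cell cycle homology element, 4.28% the E2F-type motif and 6.75% the AP-1-type motif. These matches describe the letters of the windows only.

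Retained cells numbered 553 of 585 barcodes in Repop D5 and 609 of 609 in CD, and the libraries shared 1 barcode. Summed counts of unique molecular identifiers (UMIs, each standing for 1 captured RNA molecule) were 11037921 in Repop D5 and 6055886 in CD, with medians of 16226 and 5982 UMIs per cell. Because Repop D5 cells were deeper, levels are given as counts per 1000000 UMIs of the library (CPM), and shares of cells with a UMI also after each cell was thinned to 3000 UMIs, which left out 0 Repop D5 and 10 CD cells. A floor of 3 counts corresponds to 0.272 CPM in Repop D5 and 0.495 CPM in CD. Cells were clustered without the 7 genes. Of the Repop D5 cells, 497 fell in microglia-like clusters, 47 in a monocyte-like one, 7 in a neutrophil-like one and 2 in an endothelium-like one. Of the CD cells, 388 were microglia-like, 150 border macrophage-like, 27 monocyte-like, 42 neutrophil-like and 2 endothelium-like. The labelled cell type was checked on 10 microglia markers, which summed to 9942 CPM in Repop D5 and 26049 CPM in CD with 0 markers at 0 in either library, and 1 or more of which had a UMI in every retained cell. The microglia-like cells of the libraries sat in different clusters (2, 3, 4, 6, 9 and 11 in Repop D5, with 1 cell in cluster 0, and 0, 7 and 8 in CD, with 3 cells in cluster 9 and 2 in cluster 11).

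Nes, Vim and Cspg4 were higher in Repop D5 than in CD, and Sox11 was lower through 3 CD barcodes. The other members had 7 UMIs or fewer in either library. A gene is counted as higher or lower when it reached 10 CPM in 1 library, differed 2-fold or more and had an interval clear of 1. By that rule 3 of the 7 members were higher and 0 were lower, and Sox11, Sox2, Gfap and Pdgfra stayed under 10 CPM in both. Among all 8463 genes at 10 CPM in 1 library, 9.61% were higher and 23.8% were lower. The median log2 ratio over them was -0.38. Ranked among those genes from the highest log2 ratio of CPM with 1 CPM added, Nes stood at place 47, Vim at 64 and Cspg4 at 73. A summed level does not separate more cells that hold an RNA from more RNA per cell, so the counts per cell are given next.

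**Figure D1:**
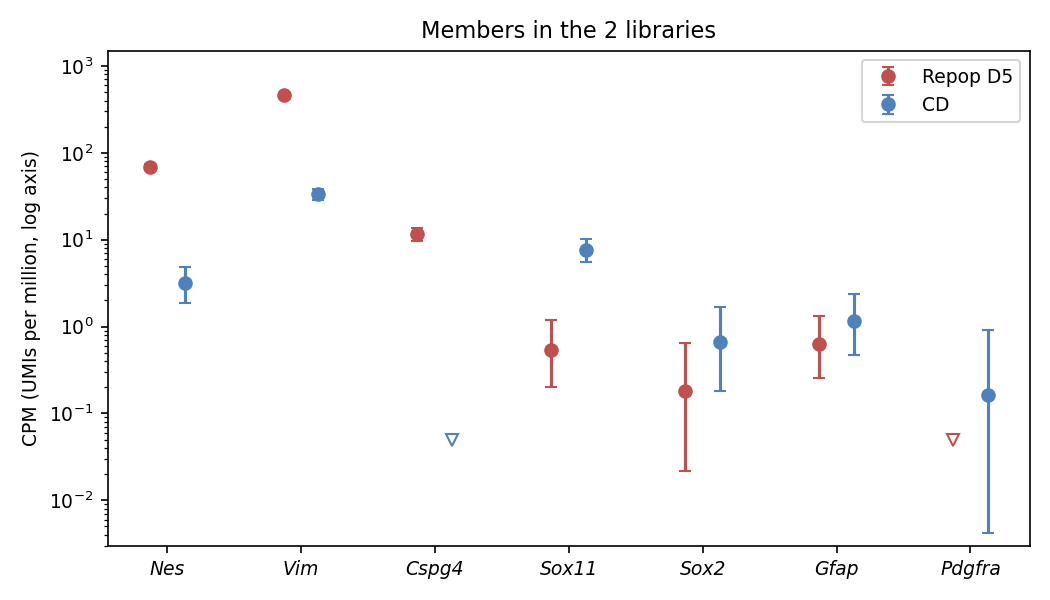
CPM of the 7 genes in the Repop D5 library (red, left of each pair) and the CD library (blue), on a log axis with 95% Poisson intervals; open triangles mark a count of 0, drawn at a fixed height. Nes at 68.5 and Vim at 460 CPM in Repop D5 stand above 3.14 and 33.4 CPM in CD, Cspg4 has 0 UMIs in CD, and the CD point of Sox11 is above that of Repop D5.

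Nes, the nestin gene (ENSMUSG00000004891), had 756 UMIs and 68.5 CPM (63.7 to 73.6) in Repop D5, against 19 UMIs and 3.14 CPM (1.89 to 4.9) in CD, a 21.8-fold higher level (13.9 to 36.5). A Nes UMI was found in 321 of 553 Repop D5 cells, 58.0% (53.8 to 62.2), and in 16 of 609 CD cells, 2.63% (1.51 to 4.23). Nes RNA was therefore spread over many Repop D5 cells. Of them 126 held 1 Nes UMI, 70 held 2, 66 held 3, 27 held 4 and 32 held 5 or more, with 11 as the most in 1 cell, while no CD cell held more than 2. At 3000 UMIs per cell the shares were 16.8% (13.8 to 20.2) in Repop D5 and 0.668% (0.182 to 1.7) in CD, so the gap between libraries stayed at equal depth.

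Vim, the vimentin gene (ENSMUSG00000026728), had 5075 UMIs and 460 CPM (447 to 473) in Repop D5, against 202 UMIs and 33.4 CPM (28.9 to 38.3) in CD, a 13.8-fold higher level (12 to 15.9). The median Repop D5 cell held 7 Vim UMIs and the median CD cell 0. Vim was found in 519 of 553 Repop D5 cells (93.9%) and 81 of 609 CD cells (13.3%), and after thinning in 65.8% (61.7 to 69.8) and 6.01% (4.24 to 8.22) of them. Most of the CD Vim came from other myeloid cells: 77 of the 202 UMIs lay in the 27 monocyte-like cells, 57 in the neutrophil-like, 40 in the border macrophage-like and 20 in the 388 microglia-like cells.

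Cspg4, the NG2 gene (ENSMUSG00000032911), had 128 UMIs and 11.6 CPM (9.67 to 13.8) in Repop D5 and 0 UMIs in CD, so that it was at least 23.4-fold higher when CD is set to 3 counts. It was found in 79 of 553 Repop D5 cells (14.3%) and in 0 of 609 CD cells, a limit of 0.493% on cells with a UMI, not on cells that express the gene. After thinning the share was 2.89% (1.66 to 4.66) in Repop D5 and 0 of 599 cells in CD, with a limit of 0.501%. Cspg4 was then 7.58-fold higher when CD is set to 3 counts. The 14 Repop D5 cells with 3 or more Cspg4 UMIs held 54 of the 128, all 14 were microglia-like, and they had 56 to 675 microglia marker UMIs each (median 210). Among those 14 cells, chosen for their Cspg4 counts, 11 also had Nes, 14 had Vim, 0 had a UMI of the other 8 oligodendrocyte progenitor markers and 2 had a UMI of a pericyte or smooth muscle marker. These cells were deep, at a median of 28181 UMIs, and 58.0% and 93.9% of all Repop D5 cells had Nes and Vim. Those oligodendrocyte progenitor markers were found in 3.8% of cells with Cspg4 and 1.48% of cells without. The counts in these 14 cells therefore set them apart in neither respect.

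**Figure D2:**
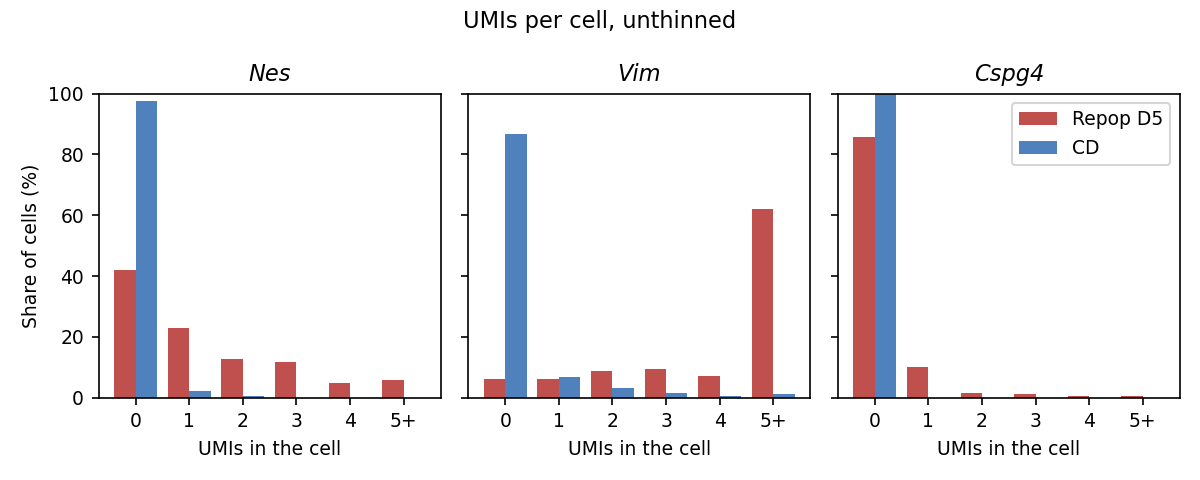
Share of cells (%) with 0 to 5 or more UMIs of Nes, Vim and Cspg4 in Repop D5 (red, left bar) and CD (blue), over 553 and 609 retained cells, unthinned. Nes is at 1 or more UMIs in 58.0% of Repop D5 cells and 2.63% of CD cells, and most Repop D5 cells hold several Vim UMIs.

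Within microglia-like cells alone the Nes and Vim ratios were larger, with few CD counts behind them. Nes was at 71.1 CPM (724 UMIs) in Repop D5 and 0.849 CPM (2 UMIs) in CD, a ratio of 83.8 (23.1 to 693) that rests on those 2 UMIs. Vim was at 451 CPM in Repop D5 and 8.49 CPM in CD, a ratio of 53.1 (34.4 to 87.1). Of the 20 CD Vim UMIs behind it, 5 lay in the 3 Sox11-rich barcodes of cluster 9 described below, which go against the microglia-like name. Cspg4 was at 11.9 CPM in Repop D5 and had 0 UMIs in CD, at least 9.34-fold higher when CD is set to 3 counts. That bound is smaller than the 23.4-fold over all retained cells, because fewer CD UMIs were summed. The CD value depends on which cells are called microglia-like: 14 of the 19 CD Nes UMIs lay in the border macrophage-like cluster, whose cells were the deepest in CD (median 17336 UMIs) and carried the microglia markers at 26682 CPM as well.

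The level of Nes differed among the Repop D5 clusters more than that of Vim. Nes reached 93.4 CPM (80.5 to 108) in cluster 3, with Ass1, Slc2a6 and Ch25h among its leading genes, 78.7 CPM in cluster 4, rich in G2 and M phase genes, and 75.0 CPM in cluster 2, rich in S phase genes. It was at 46.5 CPM in cluster 9, with Tnf and Il1b among its leading genes, 39.9 CPM in cluster 11, led by interferon-induced genes, and 25.6 CPM (15.4 to 39.9) in cluster 6. Cluster 6 was also the shallowest of these, with a median of 9812 UMIs per cell. Monocyte-like Repop D5 cells had 34.1 CPM of Nes (22.5 to 49.6) and the highest Vim among these clusters, 587 CPM (535 to 643), against 348 to 481 CPM of Vim in the microglia-like clusters. Neutrophil-like cells, a type not known for nestin, gave 3 Nes UMIs in 2 of 7 Repop D5 cells (56.0 CPM, 11.5 to 164; median 5416 UMIs) and 1 UMI in 1 of 42 CD cells (1.87 CPM; median 6386 UMIs). In CD the microglia-like share was 0.515% (0.0625 to 1.85) at a median of 4645 UMIs and the neutrophil-like share 2.38% (0.0603 to 12.6), with overlapping intervals. In Repop D5 the neutrophil-like interval covered the microglia-like level of 71.1 CPM. The neutrophil-like cells of either library were too few to set a background level, so whether Nes stood above background was not tested.

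**Figure D3:**
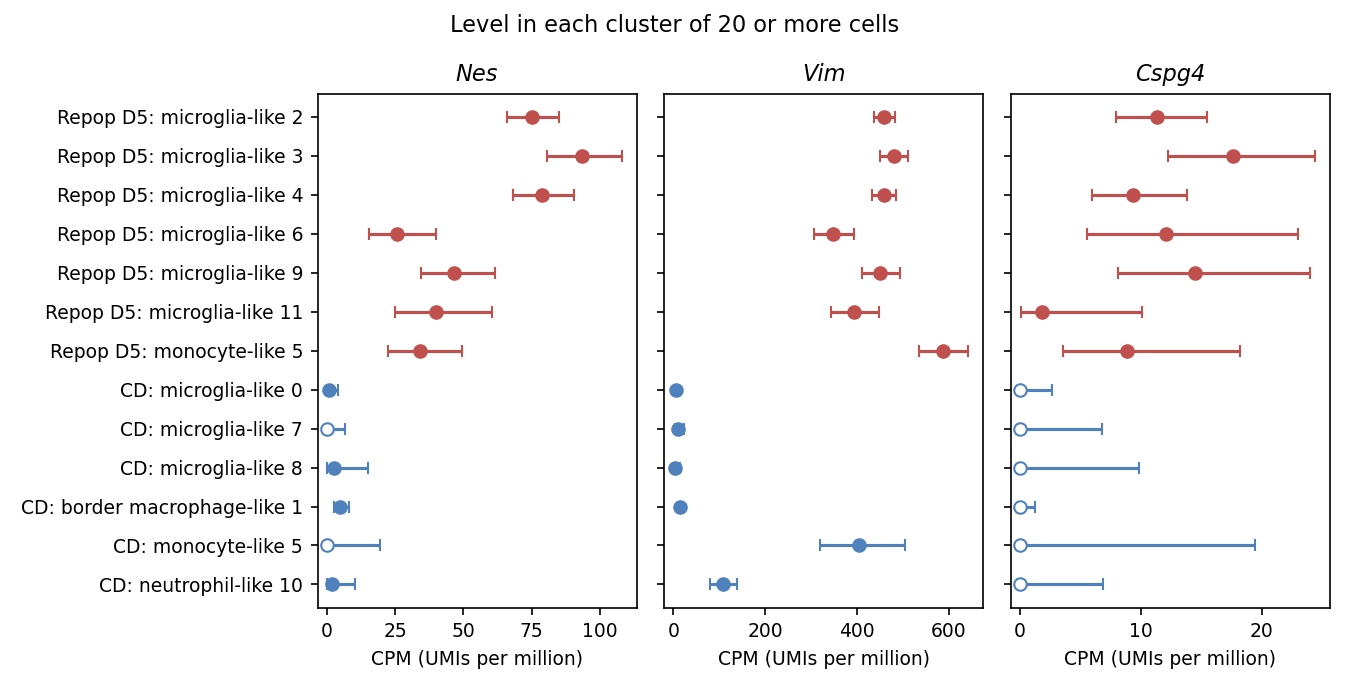
CPM of Nes, Vim and Cspg4 (points, with 95% Poisson intervals; open points are 0 UMIs) in each cluster of 20 or more cells, Repop D5 clusters above in red and CD clusters below in blue. Repop D5 clusters lie at 25.6 to 93.4 CPM of Nes while CD clusters lie at 4.73 CPM or less, and the CD monocyte-like cells are the one CD cluster with Vim near the Repop D5 levels (404 CPM).

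Microglia markers summed to 9747 CPM in the 321 Repop D5 cells with a Nes UMI and 10459 CPM in the 232 without. Every retained cell had a UMI of at least 1 marker, neutrophil-like cells included, so the presence of a marker separates no cells. Of the cells with Nes, 311 (96.9%, 94.3 to 98.5) had 8 or more of the 10, against 202 of those without (87.1%, 82.1 to 91.1). Itgam and Ptprc, which encode the sorted proteins CD11b and CD45, were found together in 294 of the 321 cells with Nes and 186 of the 232 without. Cells with Nes were deeper, at a median of 21867 UMIs against 11667 UMIs in cells without, which by itself raises any share of cells with a UMI.

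Every Repop D5 cell was therefore thinned to 8000 UMIs, which left out 66 cells and split the rest into 184 with and 303 without a Nes UMI. Cx3cr1, the fractalkine receptor gene of microglia, was then found in 100% of cells with Nes and 99.7% of cells without. P2ry12, the purinergic receptor gene lowered in reactive microglia, was found in 92.4% with and 92.7% without, a difference of -0.348 points (-5.86 to 4.54). Shares this close to 100% cannot show a difference in level. Tmem119 was in 98.9% with and 98.3% without, and Csf1r in 100% with and 99.7% without. Fcrls was the one of the 14 microglial and cycle genes compared whose interval lay above 0, with 93.5% with Nes and 87.1% without, a difference of 6.35 points (0.541 to 11.7). The intervals are not adjusted for the 14 genes.

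Cell cycle genes were found with Nes slightly more often, and no single interval was clear of 0. Mki67, the gene of the proliferation antigen Ki-67, was in 92 of 184 cells with Nes and 142 of 303 cells without (46.9%), a difference of 3.14 points (-6.3 to 12.5). Unthinned, the same shares were 74.8% and 46.6%, a difference of 28.2 points. Most of the unthinned gap was thus not seen at equal depth. Top2a, the topoisomerase gene of dividing cells, was in 48.9% with and 41.6% without (7.33 points, -2.08 to 16.7), and Ccnb2, a mitotic cyclin gene, in 47.8% with and 40.9% without. Of the S phase genes, Rrm2 was in 37.5% with and 31.0% without, Pcna in 60.3% with and 53.8% without, and Tk1 in 39.1% with and 35.0% without. The direction of the Mki67 difference was not kept within cells outside the clusters of other types, where it was -0.746 points (-10.5 to 9.01).

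Of 3328 genes found in 20 to 80% of thinned cells, 0.361% were 10 points or more higher with Nes and 0.0901% were 10 points or more lower, with a median difference of 1.21 points and a 5th to 95th percentile of -4.1 to 6.45 points. Of the 14 listed S phase genes in that range 0 were 10 points higher and the median was 5.64 points, and of the 15 G2 and M phase genes 0 were 10 points higher and the median was 5.52 points. Unthinned, 240 of the 321 Repop D5 cells with Nes held Mki67, and 237 (73.8%) held Mki67, P2ry12 and Tmem119 together, against 101 of the 232 shallower cells without Nes (43.5%). In CD, 0 of the 16 cells with Nes held Mki67, with an upper 95% limit of 20.6%, against 6 of the 593 without, and 15 of the 16 held P2ry12.

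**Figure D4:**
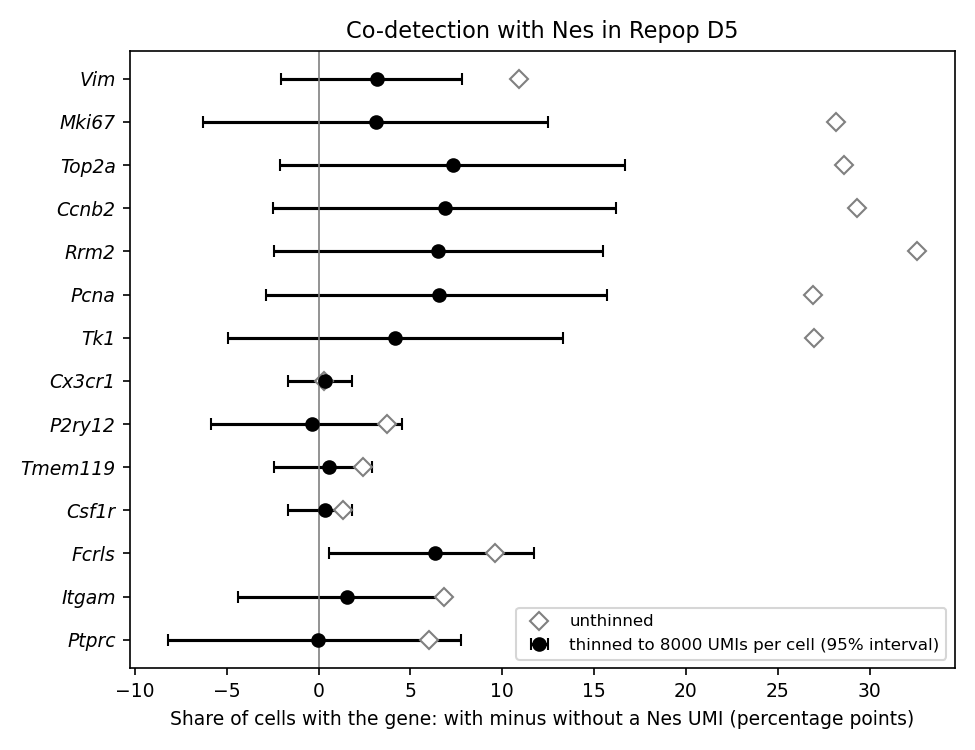
Share of Repop D5 cells with each gene among cells with a Nes UMI minus that among cells without, in percentage points, after thinning to 8000 UMIs per cell (black, 95% interval) and unthinned (open diamonds). The 6 cycle genes, Mki67 to Tk1, lie near 30 points unthinned and at 3.14 to 7.33 points when thinned, with each thinned interval reaching 0.

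The overlap of Vim and Cspg4 with Nes was uncertain. At 8000 UMIs per cell Vim was in 94.6% of cells with Nes and 91.4% without, and Cspg4 in 6.52% with and 7.26% without (-0.739 points, -5.44 to 4.57). Taken from the side of Vim, 174 of 450 cells with Vim held Nes (38.7%) and 10 of 37 without (27.0%), a difference of 11.6 points (-6.04 to 25.7), while 2.61% of 3329 genes were 10 points or more higher with Vim and 2.49% were 10 points or more lower. Across 446 microglia-like cells at this depth, the correlation of Nes was 0.09 with Vim, -0.00 with Cspg4, 0.03 with Mki67 and -0.08 with P2ry12. The 5 genes most like Nes among 3751 were Emp3 at 0.17, Ccl12 at 0.16, and Hsp90aa1, Set and Sqle at 0.15. The 5 most like Vim were Gapdh at 0.23 and Tmsb4x, Ass1, Tmsb10 and Actg1 at 0.22, and Vim stood at -0.25 with P2ry12. These are descriptions over cells of 1 library with few UMIs per gene, and values this low set no gene apart.

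Levels were also summed over quartiles of the 497 microglia-like Repop D5 cells. Ranked by the share of UMIs from S phase genes, low to high, Nes was at 54.9 (44.5 to 67.0), 67.6, 79.9 (70.1 to 90.6) and 74.2 CPM (65.0 to 84.3). Ranked by G2 and M phase genes it was at 59.7 (49.1 to 72.0), 69.2, 77.3 (67.6 to 88.0) and 73.3 CPM (64.2 to 83.4). The lowest quartile had the lowest Nes value both ways. Its interval was clear of that of the third S phase quartile and overlapped all others. The lowest quartile was also shallower, with a median of 11735 UMIs in the lowest S phase quartile and 22416 in the highest. At 8000 UMIs per cell, quartiles of all retained Repop D5 cells by S phase share held a Nes UMI in 21.1%, 38.9%, 44.2% and 45.0% of cells, low to high, and quartiles by G2 and M phase share in 29.3%, 33.3%, 45.4% and 43.8%. The lowest S phase quartile of all retained cells thus stood below the others at equal depth, while the lowest G2 and M phase quartile did not stand apart from the second. These quartiles include 56 cells of other named types, whose part in the contrast was not tested. The 497 microglia-like cells were then split at the median depth, and each group again at its median S phase share. Among the shallower cells, Nes was at 85.3 CPM (70.7 to 102) in those with more S phase RNA and 44.5 CPM (33.8 to 57.5) in those with less. The medians of these groups were 11620 and 10300 UMIs, so depth was not equal between them. In quartiles by total UMIs, Nes was at 42.4 CPM in the lowest and 79.5 CPM in the second. The part of depth in the S phase contrast was not tested. Split by G2 and M phase RNA instead, the shallower cells had 74.5 CPM (60.7 to 90.6) with more and 56.5 CPM (44.6 to 70.8) with less, with overlapping intervals. Among the deeper cells Nes was at 73.9 CPM (65.7 to 82.9) with more S phase RNA and 72.2 CPM (63.5 to 81.6) with less. The association with S phase genes was seen in the shallower cells, and whether it differs from that in the deeper cells was not tested.

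Vim followed the microglia markers in the opposite direction. Ranked by the share of UMIs from the 10 microglia markers, low to high, Vim was at 613 (584 to 643), 436, 391 and 324 CPM (299 to 351), and Cspg4 at 18.7 (13.9 to 24.5), 12.6, 8.39 and 5.92 CPM (2.95 to 10.6). Nes showed no such order, at 64.0, 77.9, 73.7 and 67.2 CPM. Among the shallower cells, Vim was at 315 CPM in those with more microglia marker RNA and 435 CPM in those with less. Among the deeper cells it was at 388 CPM with more marker RNA and 567 CPM with less. The order of Vim was therefore present at both depths. Vim and the markers are shares of the same totals.

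**Figure D5:**
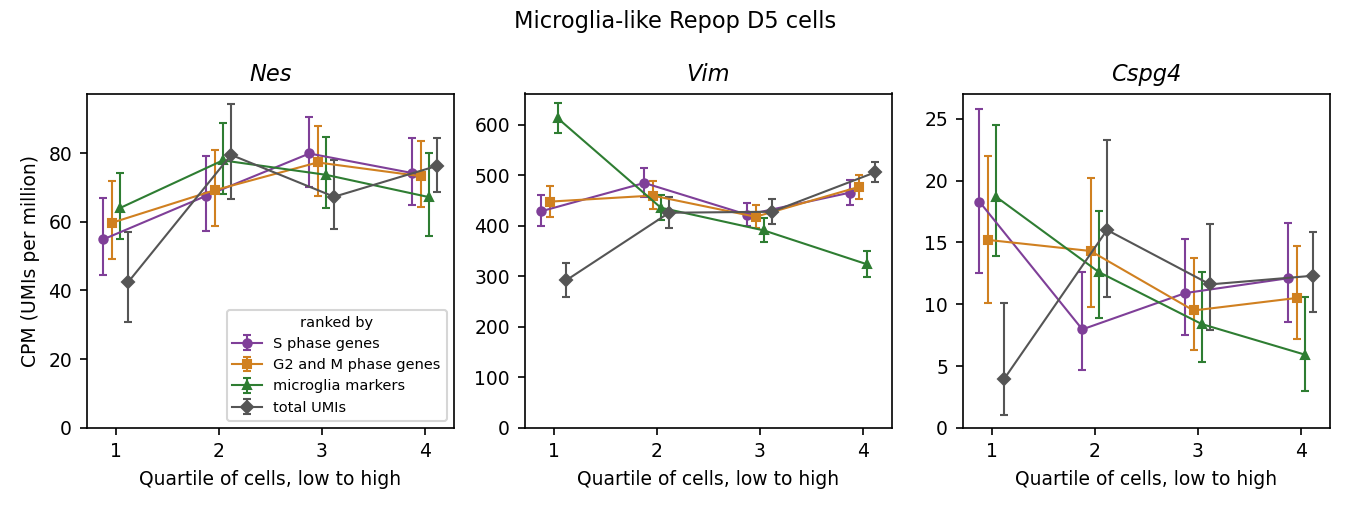
CPM of Nes, Vim and Cspg4 with 95% Poisson intervals in quartiles of the microglia-like Repop D5 cells, ranked low to high by their share of S phase, G2 and M phase or microglia marker UMIs, or by total UMIs. Vim is at 613 CPM in the lowest and 324 CPM in the highest microglia marker quartile, and Nes is lowest, at 42.4 CPM, in the quartile with fewest UMIs.

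Markers of neural and oligodendrocyte progenitors were at or near 0 in Repop D5 cells with Nes. Of 10 neural progenitor markers, Pax6, Msi1, Sox1 and Dcx were among those with 0 UMIs in Repop D5, and the list as a whole had 12 UMIs in 9 of the 321 cells with Nes (2.8%) and 5 UMIs in 5 of the 232 cells without (2.16%). Of 8 oligodendrocyte progenitor markers, Sox10, Gpr17, Lhfpl3 and Neu4 had 0 UMIs, and the rest had 6 UMIs in 5 cells with Nes and 6 UMIs in 5 cells without. In CD the neural progenitor list had 6 UMIs in 3 of the 16 cells with Nes (19.3 CPM, 7.07 to 41.9). It had 30 UMIs in 18 of the 593 CD cells without (5.22 CPM, 3.52 to 7.46). Median depths of these CD cells were 21560 and 5883 UMIs. The oligodendrocyte progenitor list had 0 UMIs in CD cells with Nes and 10 UMIs in those without. Endothelial markers, from a cell type in which nestin is also known, were found in 22.4% of Repop D5 cells with Nes and 15.9% of those without, unthinned. Their sums in Repop D5 were 23.1 CPM with and 54.2 CPM without. There, 5 of the cells with Nes and 2 of those without held 3 or more of these UMIs. Of the 2 endothelium-like Repop D5 cells, 1 held Nes. In CD the sums were 636 CPM with and 39.2 CPM without, and 2 of the 16 cells with Nes were endothelium-like. The endothelium-like cells of both libraries together held these markers at 19606 CPM, so a few cells weigh heavily on these sums. RNA of other cells was present in cells with and without Nes. Neutrophil markers were found in 99.4% of Repop D5 cells with Nes at 1399 CPM and in 99.6% of those without at 3766 CPM. The part of such RNA in these values was not tested.

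Sox11, the transcription factor gene of immature neurons (ENSMUSG00000063632), had 6 UMIs and 0.544 CPM (0.199 to 1.18) in Repop D5, against 46 UMIs and 7.6 CPM (5.56 to 10.1) in CD, a ratio of 0.0716 (0.025 to 0.168). In Repop D5 the 6 UMIs lay in 6 cells, and in CD 22, 13 and 5 of the 46 lay in 3 barcodes. Those 3 barcodes are the only CD cells of cluster 9, which was named from its Repop D5 cells, and they go against that name. They held 84 UMIs of neuron markers, among them Tubb3 and Stmn2, and 51 UMIs of the 10 microglia markers, beside 6 UMIs of Dcx, the doublecortin gene of immature neurons. They held 0 Nes UMIs and 5 Vim UMIs. Without these 3 barcodes both libraries had 6 Sox11 UMIs, and the ratio was 0.547 (0.146 to 2.05).

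Sox2, the neural stem cell factor (ENSMUSG00000074637), had 2 UMIs in Repop D5 and 4 UMIs in CD, of which 3 lay in the same Sox11-rich barcodes, a ratio of 0.274 (0.0248 to 1.91). Gfap, the astrocyte filament gene (ENSMUSG00000020932), had 7 UMIs in 7 cells of each library, a ratio of 0.549 (0.164 to 1.83). Pdgfra (ENSMUSG00000029231) had 0 UMIs in Repop D5, which allows a UMI in up to 0.542% of cells at this depth and sets no limit on cells that express it, and 1 UMI in CD. At this depth no difference in Sox2, Gfap or Pdgfra between the libraries was detectable.

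Other genes of the same families differed unevenly. Among intermediate filament and lamin genes, 2 of 3 at 10 CPM were higher and 0 lower: Lmnb1, the lamin B1 gene, was at 104 CPM in Repop D5 and 14.4 CPM in CD, and Lmna, the lamin A and C gene, at 22.6 CPM in Repop D5 and 6.11 CPM in CD. Among filament linkers and kinases known to phosphorylate vimentin or nestin, 4 of 10 were higher and 1 was lower. The 4 higher genes were Cdk1, Aurka, Aurkb and Plk1, which are also counted below among the genes of G2 and mitosis. No linker was called higher. The median over the list was -0.25 on the log2 scale. That median was 0.20 with trimmed-mean (TMM) scaling and 0.01 with totals lacking mt- and ribosomal protein genes, and the lower call, the kinase gene Rock2 (30.6 CPM in Repop D5, 71.3 CPM in CD), was lost under both. The kinases Cdk1 (116 CPM in Repop D5, 3.8 CPM in CD) and Aurkb (35.3 CPM in Repop D5, 0.661 CPM in CD) were among those higher, and the linker Macf1 was at 109 CPM in Repop D5 and 187 CPM in CD, short of 2-fold. These counts stand beside the 9.61% and 23.8% over all genes.

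The partner genes of the other members gave few counts. Of 10 other Sox genes, 1 reached 10 CPM, Sox4, which was lower at 20.1 CPM in Repop D5 and 181 CPM in CD. Of 6 platelet-derived growth factor genes, ligands of the Pdgfra receptor among them, 2 reached 10 CPM: Pdgfb was lower at 35.6 CPM in Repop D5 and 76.8 CPM in CD, a call lost under both of those scalings and in microglia-like cells alone, and Pdgfa was at 32.1 CPM in Repop D5 and 38.1 CPM in CD. Of 7 other chondroitin sulfate proteoglycan genes 1 reached 10 CPM, Cd44, the hyaluronan receptor gene, which was higher at 46.8 CPM in Repop D5 and 14.5 CPM in CD. Beside these, 18 of 19 genes of S phase and 25 of 25 of G2 and mitosis were higher, and 13 of 20 microglial and myeloid genes were lower, P2ry12 among them at 495 CPM in Repop D5 and 2988 CPM in CD.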

How the data were processed

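Per the labels' protocols, papain-dissociated brain cells were sorted and made into 10x Genomics libraries. The submitters' processing notes name the mm10 build and Cell Ranger 2.1.0; the annotation release and cell calling are not given in the sources used here. What the authors deposited are raw UMI counts, 1 value per gene and barcode. Of the Itgam symbol's 2 rows the first was used. The cell filter asked for 500 genes or more and less than 10% mt- UMIs, and no doublets were removed. Counts were summed per library (floors of 3 counts). Ratios carry exact conditional binomial 95% intervals, CPM exact Poisson and shares Clopper-Pearson intervals, and differences of shares combine the Clopper-Pearson bounds. Limits on shares of 0 stand for 3 cells, apart from the 95% limit given for Mki67 in CD. Thinned values are medians of 20 seeded draws. Clusters, without the 7 genes, used scanpy 1.11.5 in Python 3.11.15 (2000 variable genes, 30 components, 15 neighbours, Leiden resolution 1, leidenalg 0.10.2). A cluster took another type's name with 3 or more of its markers among its 10 leading genes, and was otherwise microglia-like when at least 3 microglia markers reached 50 CPM.

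All 7 members, 14 genes for co-detection (1 of them not reported here), the 5 genes most correlated with Nes and with Vim, and in each list the most abundant and most changed genes are named. Correlations are Pearson's, of log counts per 10000. Members, lists and rules were chosen with earlier results of these data known. The scripts were tested on simulated data. Alternatives were other cell filters, scalings, thinning depths, doublet removal, list minimums, pseudocounts, cells outside clusters of other types and the authors' pooled matrix of counts. Leaving out the Sox11-rich barcodes, the endothelium-like cells, or the monocyte-like and neutrophil-like cells was added after seeing the data. So were the quartiles of microglia-like cells and the splits by depth.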

Additional observations from a re-analysis of the deposited data

Results flagged for a closer look

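In Repop D5, 32 barcodes failed the cell filter. These barcodes, with a median of 14.1% of UMIs from mt- genes and 6689 UMIs, also held these RNAs. Nes was at 61.0 CPM (34.9 to 99.0), Vim at 412 CPM (338 to 497) and Cspg4 at 19.1 CPM (6.19 to 44.5) in them, each above its level in the CD library. No CD barcode was left out, so no control value measured the same way exists.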

How the results depend on the processing

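No paired analysis was possible because each group is 1 library. For the same reason no replicate could be left out. Of 223 values under alternatives, 172 stayed within the interval of the value reported (or 1.5 times a count), 48 lay outside it and 3 changed direction; the cause was not tested. The Nes ratio was 83.8 among cells outside clusters of other types, where 2 CD UMIs remain. The Vim ratio was 53.1 there, 35.3 without monocyte-like and neutrophil-like cells, 18.9 with TMM scaling and 16.6 with totals lacking mt- and ribosomal protein genes, since these scalings raise every log2 ratio by 0.46 and 0.27. With CD set to 3 counts, Cspg4 was 17.4-fold higher without the 5% of cells with most UMIs and 9.34-fold higher in microglia-like cells. It was 32.1-fold and 28.2-fold higher under the same scalings, and 7.58-fold higher after thinning to 3000 UMIs. The Sox11 ratio was 0.547 without its 3 barcodes, and the Sox2 ratio 0 after thinning. The share of cells with Nes was 58.0% in Repop D5 and 2.63% in CD unthinned, and 11.2% in Repop D5 at 2000 UMIs. The Mki67 difference was 28.2 points unthinned. At a list minimum of 50 CPM, 1 filament or lamin gene, 1 linker or kinase, 9 S phase genes and 15 genes of G2 and mitosis were higher. With no minimum 2 Sox and 2 platelet-derived growth factor genes were lower. That growth factor count was 0 under either scaling and in microglia-like cells, that of lower linkers and kinases was 0 under either scaling, and that of lower microglial genes was 8 with TMM. The linker and kinase median was 0.20 with TMM and 0.01 with the other totals, and the proteoglycan median was -0.05 with no minimum. Members with 7 UMIs or fewer and the CD microglia-like Nes level are limited by depth.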

Other observations

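Genes that differed most with Nes at 8000 UMIs per cell were named after their values were seen. The 12 that were 10 points or more higher in cells with Nes were Msmo1 (13.4 points) and Sqle (13 points), Ddx21 (11.9 points), Ass1 and C5ar1 (11.8 points each), Cyp51 and Slc38a1 (11.7 points each), Tmem97 (10.8 points), Exosc2 (10.5 points), and Gpr84, Slc7a5 and Taf1d (10.4 points each). The 3 genes that were 10 points or more lower were Ramp1 (-10.8 points), Ypel3 (-10.7 points) and Tmem86a (-10.6 points). Sqle, Ass1 and Gpr84 are also leading genes of cluster 3, where Nes was highest among the microglia-like clusters, and Ramp1 of cluster 6, where it was lowest. These values carry no test, and they stand against 3328 genes compared.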
